A study of Mus musculus with 24 samples.

Results

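Endothelial cells line blood vessels, and 8 genes that mark them were followed in RNA of the mouse ventral otocyst, the portion of the embryonic inner ear that includes the cochlea. The genes were Pecam1, Cdh5, Esam, Kdr, Tie1, Tek, Emcn and Egfl7, taken by name as a set of endothelial genes and matched by Ensembl identifier. They are 8 of the 53946 genes in the count table, each matched 1 identifier, and all 8 passed the filter on low counts in every fit.

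The libraries were polyA RNA collected at embryonic day 14.5, and the labels give the strain as C57BL/6J x 129X1/SvJ. TRAP (translating ribosome affinity purification) recovers RNA on ribosomes that carry the tagged protein L10a-eGFP, using antibodies to GFP, and the tag was directed to cells of the Fgf20-Cre lineage. Pre-TRAP libraries are named so in the labels and are read here as RNA from before that step, although both kinds carry the same extraction text. The groups were TRAP mut (Fgf20-/-, n = 8), TRAP het (Fgf20+/-, n = 8), pre-TRAP mut (Fgf20-/-, n = 4) and pre-TRAP het (Fgf20+/-, n = 4). The het embryos, which serve as controls, also carry 1 mutant Fgf20 allele. Between 3 and 7 embryos sharing a genotype were pooled for a library, and 2 experiments contributed equal numbers of libraries to every group. The labels do not say which embryos were littermates or whether a TRAP and a pre-TRAP library came from the same pool, so p-values measure the spread between these pools.

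Vessels of the inner ear grow in the mesenchyme around the otic epithelium and not from the epithelium itself. Endothelial cells are held together by cadherin and immunoglobulin-type adhesion proteins, respond to VEGF through the receptor Kdr, and are kept quiescent by angiopoietin signalling through Tek and its partner Tie1. Transcription factors of the ETS family, which bind a GGAA core, act on many endothelial genes.

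Total counts ran from 30745166 to 53374796 per library. Levels are given as CPM, which brings counts to a common library total, corrected by TMM factors of 0.80 to 1.14, and they compare libraries for 1 gene. They are not per transcript length, so levels of different genes are not set against each other. Fgf20, the ligand gene that the mutation targets, averaged 2.24 ± 0.729 CPM in TRAP mut libraries and 4.19 ± 0.979 CPM in TRAP het libraries (SD, n = 8 each). In pre-TRAP libraries it averaged 0.236 ± 0.0690 CPM in mut and 0.886 ± 0.584 CPM in het (SD, n = 4 each). Neither genotype difference in Fgf20 passed over all genes in edgeR's quasi-likelihood test (adjusted p = 0.188 and 0.837). As background to the purification, neuron genes summed to 3508 to 6540 CPM in TRAP libraries and 659.6 to 1010 CPM in pre-TRAP libraries, and otic epithelium genes to 1055 to 1342 CPM in TRAP libraries and 722.6 to 1117 CPM in pre-TRAP libraries.

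The 250 bases before the RefSeq start (build GRCm38.p6) are shown for the 3 receptor genes and for Emcn, as 4 of the 5 genes with an entry, all of them lower in TRAP, whose windows differ in the motif counted here. Each runs 5′ to 3′ along the gene's strand, and capitals mark every AGGAA or its reverse complement TTCCT, an ETS core with 1 flanking base.
Kdr (chr5:75978456-75978705, minus strand): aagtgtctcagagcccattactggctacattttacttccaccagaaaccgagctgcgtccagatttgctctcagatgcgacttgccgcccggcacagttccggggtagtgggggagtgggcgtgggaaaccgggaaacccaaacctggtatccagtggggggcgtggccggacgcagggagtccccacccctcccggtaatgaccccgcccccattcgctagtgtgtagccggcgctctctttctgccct
Tie1 (chr4:118489850-118490099, minus strand): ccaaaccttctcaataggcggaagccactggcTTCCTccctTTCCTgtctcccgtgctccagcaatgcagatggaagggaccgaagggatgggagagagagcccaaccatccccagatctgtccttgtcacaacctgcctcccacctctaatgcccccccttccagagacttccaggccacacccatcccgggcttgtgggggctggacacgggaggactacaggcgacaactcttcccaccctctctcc
Tek (chr4:94739039-94739288, plus strand): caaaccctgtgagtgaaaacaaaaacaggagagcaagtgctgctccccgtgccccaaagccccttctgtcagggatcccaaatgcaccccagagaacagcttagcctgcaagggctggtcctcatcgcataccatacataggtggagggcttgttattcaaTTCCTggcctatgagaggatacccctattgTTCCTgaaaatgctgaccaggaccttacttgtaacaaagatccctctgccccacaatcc
Emcn (chr3:137340828-137341077, plus strand): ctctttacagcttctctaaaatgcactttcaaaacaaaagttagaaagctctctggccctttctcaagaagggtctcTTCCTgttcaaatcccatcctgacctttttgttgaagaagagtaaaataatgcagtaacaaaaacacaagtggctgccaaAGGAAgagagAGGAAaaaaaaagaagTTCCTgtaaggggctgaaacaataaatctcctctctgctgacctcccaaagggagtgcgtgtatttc

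The Emcn window held 4 matches, those of Tie1 and Tek held 2 each and that of Kdr held 0. GGAA with another base before it was not counted, and of the windows shown those of Kdr and Tie1 hold such strings. Egfl7 has 3 listed starts, whose windows held 4, 1 and 0 matches. Of 32851 RefSeq promoter windows of the same length, 60.3% held at least 1 match, with a median of 1, so having a match does not set these genes apart. The string AGATAA or its reverse complement TTATCT, 1 form of the GATA motif that 9.99% of windows hold, was in none of them. Other strings with GATA or its reverse complement TATC were not counted. The Kdr and Tek windows and those of the 3 Egfl7 starts hold such strings. A SOX core (ACAAT or ATTGT), in 27.7% of windows, occurred 2 times before Tek, 1 time before Emcn and not before Kdr, Tie1 or the 3 starts of Egfl7. A match is a string of letters and not a measured binding site. An absent match applies to these 250 bases and to the exact strings counted alone. The table gave 5 of the 8 genes, without Pecam1, Cdh5 and Esam.

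The first comparison set TRAP against pre-TRAP libraries and asked how the level of endothelial RNA, relative to the other RNA of a library, differed between them. CPM are relative, so the percentages below do not give an amount of RNA recovered. All 8 genes were lower in TRAP libraries, at 14.8% to 23.3% of their pre-TRAP level, a reduction of 4.29-fold to 6.75-fold. The 8 genes together summed to a lowest, median and highest value of 7.99, 11.9 and 25 CPM in 16 TRAP libraries and 62.4, 72.1 and 75.6 CPM in 8 pre-TRAP libraries. For each gene the highest TRAP library lay below the lowest pre-TRAP library. Such a full separation in this direction was seen in 8.32% of the 24242 genes tested, and 31.2% of them were called lower in TRAP at an adjusted p under 0.05 in edgeR's quasi-likelihood test. The median log2 fold change of the 8 genes was -2.38, and that of all genes tested was -0.01.

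**Figure D1:**
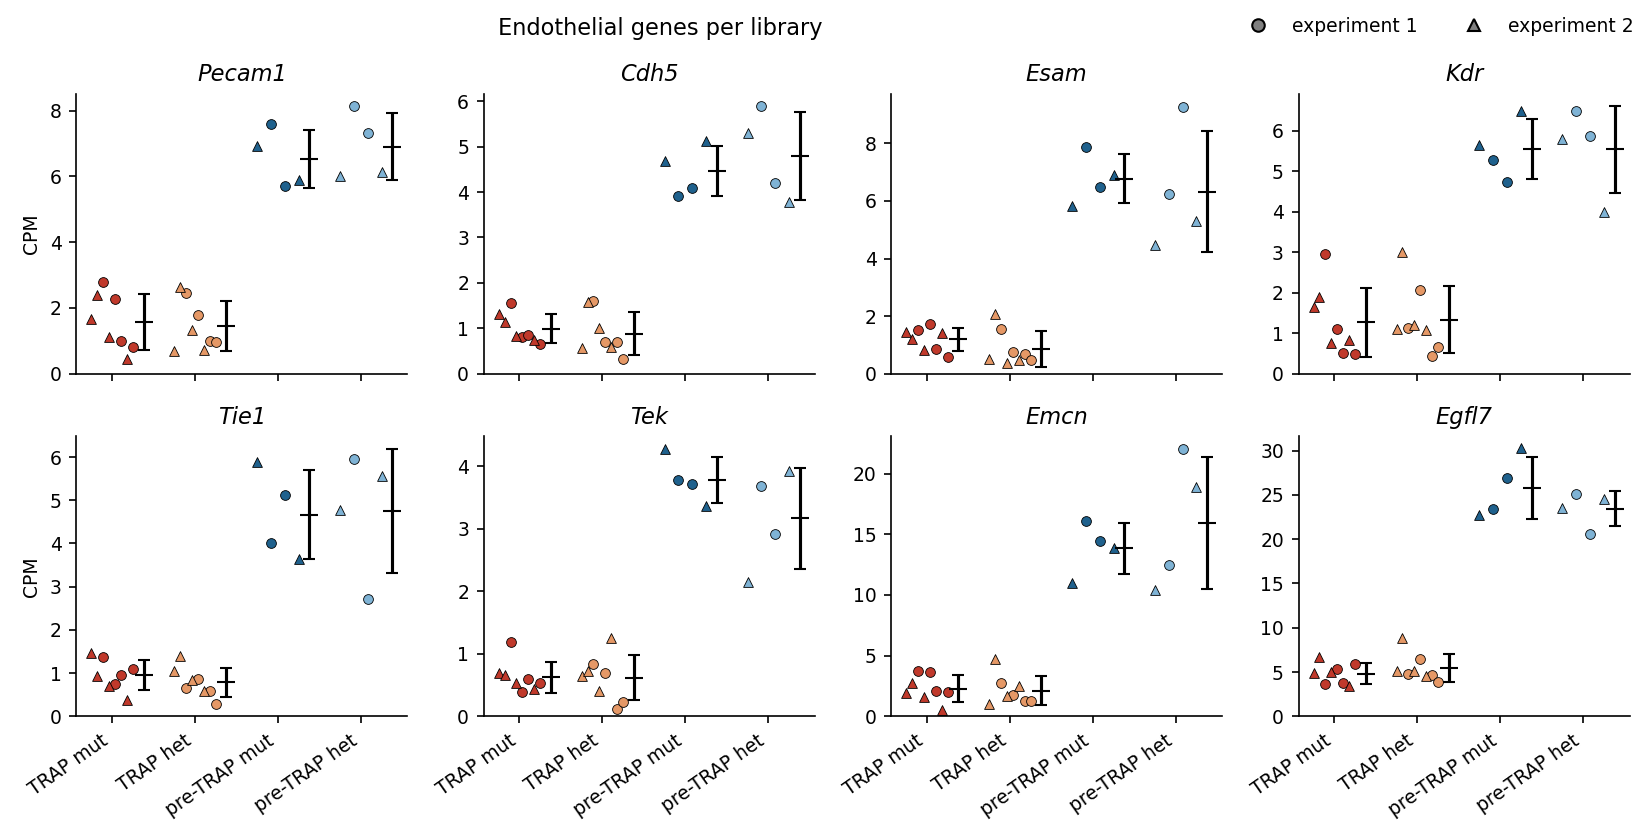
Level of each of the 8 endothelial genes in every library, in CPM on linear axes that start at 0 and differ between panels. Red and orange points are TRAP mut and TRAP het, dark and light blue points are pre-TRAP mut and pre-TRAP het, circles are experiment 1 and triangles experiment 2, and bars give mean ± SD. In every panel the 16 TRAP points lie below the 8 pre-TRAP points, and mut and het points intermingle.

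Among the junction and adhesion genes, Pecam1 encodes CD31, an immunoglobulin-type adhesion protein of endothelial contacts that platelets and some leukocytes also carry. Its lowest, median and highest values were 0.440, 1.39 and 2.80 CPM in TRAP mut libraries and 0.671, 1.16 and 2.64 CPM in TRAP het libraries. Pre-TRAP mut libraries had 5.70, 5.89, 6.91 and 7.58 CPM, and pre-TRAP het libraries had 6.01, 6.12, 7.33 and 8.13 CPM. The genotypes overlapped within each method, and the lowest pre-TRAP library stood 2.04 times above the highest TRAP library. The log2 fold change of TRAP over pre-TRAP was -2.16 ± 0.25 (SE, edgeR adjusted p = 2.56e-08).

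Cdh5 encodes VE-cadherin, the cadherin of endothelial adherens junctions. In TRAP libraries its lowest, median and highest values were 0.642, 0.841 and 1.56 CPM in mut and 0.314, 0.692 and 1.61 CPM in het. In pre-TRAP libraries it had 3.92, 4.09, 4.69 and 5.13 CPM in mut and 3.78, 4.20, 5.30 and 5.89 CPM in het. Of the 8 genes it had the widest gap between methods, with the lowest pre-TRAP library 2.35 times the highest TRAP library. Its log2 fold change was -2.32 ± 0.21 (SE, edgeR adjusted p = 3.26e-10).

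Esam encodes an immunoglobulin-type adhesion protein of endothelial tight junctions, also present on platelets. TRAP mut libraries ran through 0.578, 1.30 and 1.73 CPM (lowest, median and highest), and TRAP het libraries through 0.355, 0.592 and 2.08 CPM. The pre-TRAP mut values were 5.82, 6.50, 6.90 and 7.87 CPM, and the pre-TRAP het values 4.46, 5.30, 6.23 and 9.29 CPM. The median of TRAP mut lay above that of TRAP het, but the highest TRAP value of all belonged to a het library, number 3. With -2.69 ± 0.24 (SE, edgeR adjusted p = 3.20e-10), its log2 fold change was the second largest of the 8 after Emcn.

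Of the receptors, Kdr encodes VEGFR2, the main signalling receptor for VEGF-A in endothelium. Its TRAP values were 0.471, 0.968 and 2.95 CPM in mut and 0.421, 1.12 and 3.00 CPM in het (lowest, median and highest). In pre-TRAP RNA the mut libraries had 4.75, 5.29, 5.66 and 6.50 CPM, and the het libraries had 4.00, 5.81, 5.87 and 6.49 CPM. Kdr had the narrowest gap, since TRAP libraries 3 and 6 reached 3.00 and 2.95 CPM, and the lowest pre-TRAP library was 1.33 times the highest TRAP library. The log2 fold change, the smallest in size of the 8, was -2.10 ± 0.28 (SE, edgeR adjusted p = 2.81e-07).

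Tie1 encodes an orphan receptor kinase that pairs with Tek. TRAP libraries had a lowest, median and highest value of 0.385, 0.943 and 1.46 CPM in mut and 0.287, 0.749 and 1.40 CPM in het. The pre-TRAP values were 3.64, 4.01, 5.13 and 5.88 CPM in mut and 2.72, 4.77, 5.55 and 5.95 CPM in het. Its pre-TRAP libraries spread widely with both genotypes mixed throughout, and all of them lay above every TRAP library. The log2 fold change was -2.44 ± 0.21 (SE, edgeR adjusted p = 1.56e-10).

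Tek encodes TIE2, the receptor of angiopoietins. It had the fewest counts, 5 to 41 per TRAP library, and its lowest, median and highest TRAP values were 0.387, 0.563 and 1.18 CPM in mut and 0.124, 0.668 and 1.25 CPM in het. Pre-TRAP mut libraries had 3.36, 3.71, 3.78 and 4.27 CPM, and pre-TRAP het libraries had 2.14, 2.91, 3.68 and 3.92 CPM. The 4 mut libraries sat close together and the 4 het libraries more widely, with overlap. Tek had a log2 fold change of -2.49 ± 0.24 (SE, edgeR adjusted p = 1.32e-09).

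Emcn encodes endomucin, a sialomucin of the endothelial surface found mainly on capillaries and veins. Its TRAP values were 0.495, 2.03 and 3.76 CPM in mut and 1.03, 1.70 and 4.69 CPM in het (lowest, median and highest). Pre-TRAP mut libraries had 11.0, 13.8, 14.4 and 16.1 CPM, and pre-TRAP het libraries had 10.4, 12.4, 18.9 and 22.0 CPM. The 2 highest pre-TRAP values were both het, and the 2 lowest were 1 of each genotype. Emcn had the largest reduction of the 8, with a log2 fold change of -2.76 ± 0.25 (SE, edgeR adjusted p = 2.95e-10), a 6.75-fold lower level in TRAP.

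Egfl7 encodes a secreted EGF-domain protein that endothelial cells deposit in the matrix of growing vessels. It had 102 to 317 counts per TRAP library and the smallest relative spread. TRAP libraries ran through 3.38, 4.93 and 6.72 CPM in mut and 3.84, 4.94 and 8.89 CPM in het (lowest, median and highest), and pre-TRAP libraries had 22.7, 23.4, 26.9 and 30.3 CPM in mut and 20.6, 23.5, 24.6 and 25.1 CPM in het. The medians of the TRAP genotypes were almost equal, and the highest TRAP library was again library 3. The log2 fold change was -2.27 ± 0.13 (SE, edgeR adjusted p = 4.97e-14).

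Within each genotype all 8 genes were also lower in TRAP. In mut the log2 fold changes of TRAP over pre-TRAP ran from -2.61 in Emcn up to -2.07 in Pecam1, with 24.1% of all genes called lower. In het they ran from -2.90 in Emcn up to -2.08 in Kdr, with 24.2% of all genes called lower. The difference between the genotypes in this change, which equals the genotype by method interaction, lay between -0.30 (Egfl7) and 0.37 (Esam) on the log2 scale. None of the 8 genes passed in it (edgeR, adjusted p = 1.0 for each, 0 at an unadjusted p under 0.05, and 0 called by DESeq2 or limma voom). In that comparison 0% of all genes were called. The 95% intervals of the 8 interaction values reached -1.24 at the lower end and 1.40 at the upper end, so differences of that size are not excluded.

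**Figure D2:**
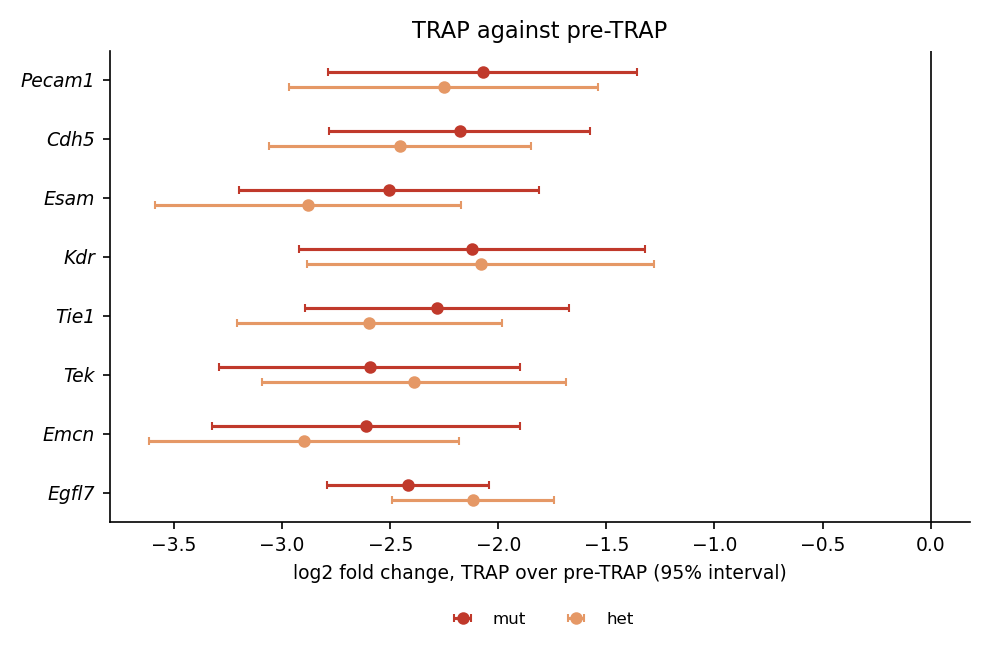
Log2 fold change of TRAP over pre-TRAP for the 8 genes, in mut (red, upper of each pair) and in het (orange), with 95% intervals from edgeR. All 16 intervals lie below 0 and the mut and het intervals of each gene overlap.

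The reduction was present in both experiments. In experiment 2 alone the log2 fold changes of TRAP over pre-TRAP were between -2.67 (Emcn) and -1.88 (Kdr), and in experiment 1 alone between -2.94 (Esam) and -2.17 (Pecam1). The difference between the experiments in this change (experiment 2 minus experiment 1) ran from -0.05 in Pecam1 up to 0.44 in Esam. It passed for 0 of 8 genes in edgeR (0 at an unadjusted p under 0.05, and 0 called by DESeq2 or limma voom), against 0.0289% of all genes. The 95% intervals reached -1.16 at the lower end and 1.56 at the upper end, so differences of that size are not excluded.

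The spread between TRAP libraries was larger than counting alone gives. For Pecam1 the coefficient of variation was 52.3% over 16 TRAP libraries and 13.5% over 8 pre-TRAP libraries, where counting error at these counts would give 15.5% and 6.40%. For Kdr it was 62.4% in TRAP and 15.4% in pre-TRAP, and counting error would give 17.0% and 7.04%. Egfl7 varied least, with 27.0% in TRAP and 11.9% in pre-TRAP. Counting error covers the reads alone, since PCR copies are not independent molecules.

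Some TRAP libraries held like places for most of the 8 genes, and others did not. Library 3 (TRAP het, experiment 2) was among the 4 highest of 16 for all 8 genes, and library 6 (TRAP mut, experiment 1) for 7 of them. Library 15 (TRAP het, experiment 1) was among the 4 lowest for 7 of 8. Library 11 ranked from 1 to 15 over the 8 genes, library 10 from 2 to 14, and library 16 was among the 4 highest for 2 genes and the 4 lowest for 3. The summed level of the 8 genes was 25 CPM in library 3, 18.8 in library 6, 17.7 in library 4, 16.1 in library 10 15.7 in library 5, 8.11 in library 14 and 7.99 CPM in library 15. High and low libraries came from both genotypes and both experiments. Of the pre-TRAP libraries, library 17 was among the 4 lowest of 8 for 6 genes, and the others were there for 3 or 4 genes each.

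Mesenchyme, pericyte and macrophage RNA was high in several of the same TRAP libraries, and erythroid RNA was less so. The summed level of 12 periotic mesenchyme genes was highest in libraries 6, 5, 3 and 4, with 1254, 971.5, 751.1 and 556.7 CPM, within a TRAP range that starts at 276.9 CPM. Among the 16 TRAP libraries these held ranks 2, 5, 1 and 3 for the endothelial genes and ranks 1, 2, 3 and 4 for the 10 pericyte genes. For the 11 macrophage genes, libraries 4, 5 and 3 held ranks 1, 2 and 3 and library 6 held rank 5. The summed level of the 12 erythroid genes was highest in libraries 13 and 2, with 1627 and 1357 CPM, and libraries 4, 5, 3 and 6 held ranks 3, 4, 5 and 9. The part of these cell types in the endothelial values was not tested. Without these 4 libraries, an alternative chosen after seeing the data, the log2 fold changes of TRAP over pre-TRAP lay between -3.08 (Emcn) and -2.35 (Egfl7), and all 8 passed. A larger reduction follows from the choice itself, since high endothelial values leave with these libraries. In het, Esam had -3.55 without them and -2.88 with them.

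**Figure D3:**
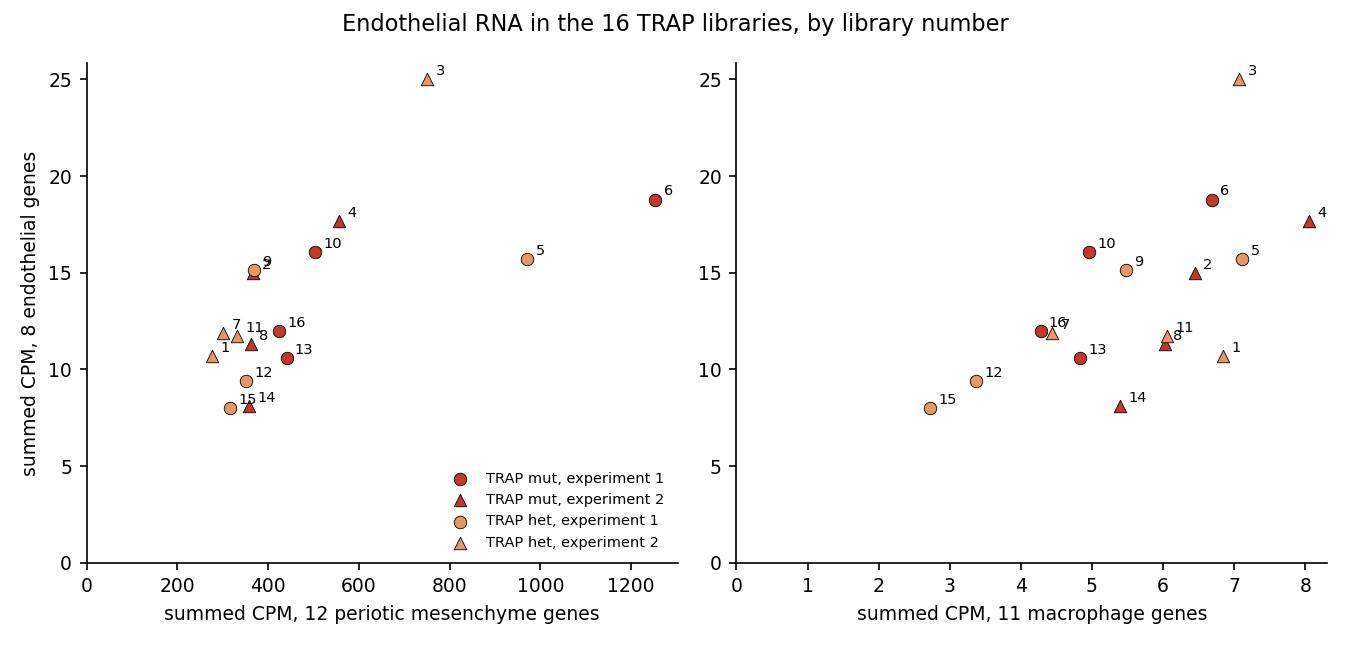
Summed CPM of the 8 endothelial genes (vertical axis) in each of 16 TRAP libraries against the summed CPM of 12 periotic mesenchyme genes (left) and 11 macrophage genes (right), on linear axes from 0. Red points are TRAP mut and orange points TRAP het, circles are experiment 1 and triangles experiment 2, and numbers are library numbers. Library 3 is highest on the vertical axis at 25 CPM, and library 6 is highest for mesenchyme genes at 1254 CPM.

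How far the 8 genes moved together was described over the 16 TRAP libraries, on log2(CPM + 0.5) with the mean of each genotype-by-experiment cell subtracted. The Pearson r of each gene with the mean of the other 7 was 0.899 for Pecam1, 0.836 for Emcn, 0.825 for Kdr and 0.80 for Cdh5. It was 0.679 for Esam, 0.662 for Tie1, 0.495 for Egfl7 and 0.461 for Tek. Without the 2 libraries farthest from the median it was 0.861 for Pecam1 and 0.504 for Esam. These points share libraries, scaling factors and, for Tek, very low counts.

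Among 16495 other genes with a mean of at least 1 CPM, the 10 with the highest r with the mean of the 8 in these TRAP libraries were Ccnd2, Mme, Pdgfra, Svep1, Cdh11, Pcdh18, Nr3c1, Cped1, Arsj and Cavin2. Their r ran from 0.958 for Ccnd2, a D-type cyclin, down to 0.929 for Cavin2, a caveolar coat protein. Pdgfra, a receptor of PDGF on mesenchymal cells, had 0.952, and Cdh11, a mesenchymal cadherin, had 0.942. Pdgfra stands in the mesenchyme list, and none of the 10 stands in an endothelial list. The lists do not hold every gene of a cell type, and low counts limit the r that many listed endothelial genes can reach. Over all 24 libraries the 10 genes most like the 8 were Ccnd2, Rhoj, Cnn2, Lef1, Snai2, Pcdh18, Cald1, Ikbip, Mecom and Slc35d1. There the libraries form a TRAP and a pre-TRAP cluster, so no r is given.

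Further endothelial genes showed where the 8 stood within their cell type. Of 21 other endothelial surface and junction genes, 19 were lower in TRAP and 0 higher, with a median log2 fold change of -2.37. Of all genes 31.2% were called lower. The 19 include Esm1, a secreted proteoglycan, which passed the filter through pre-TRAP libraries and was too low to be tested within TRAP. Ramp2, a co-receptor for adrenomedullin, had -2.60 ± 0.14 (SE, edgeR adjusted p = 3.15e-14) and Cd34, a sialomucin, -2.98 ± 0.22 (SE, edgeR adjusted p = 9.35e-12). Cd93, a C-type lectin-like receptor, had -2.57 ± 0.25 (SE, edgeR adjusted p = 1.90e-09). The 2 that did not pass were S1pr1, a receptor for sphingosine-1-phosphate that neural cells also carry, with 0.16 ± 0.15, and Rasip1, a Ras-interacting protein, with -0.27 and an adjusted p of 0.0669 (edgeR).

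All 17 endothelial transcription factors were lower in TRAP, where 31.2% of all genes were called lower, with a median of -2.45. Those named by the rule were Mef2c (-1.34 ± 0.12), Ets2 (-1.65 ± 0.10), Gata2 (-1.15 ± 0.10) and Ets1 (-2.62 ± 0.26, SE for each), none of which is restricted to endothelium. Gata2, a zinc-finger factor that neurons also use, had the smallest of these reductions.

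Vascular ligands and receptors were more mixed. Of 21, 14 were lower and 4 higher in TRAP, and the median was -1.34. Of all genes 31.2% were called lower and 27.9% higher. Cxcl12, a chemokine, had -1.92 ± 0.13 and Nrp2, a semaphorin and VEGF co-receptor, had -1.05 ± 0.14 (SE). Pgf, the placental growth factor, rose by 0.78 ± 0.14 (SE, edgeR adjusted p = 2.71e-05), and Vegfb, a VEGF family ligand, had 0.15 ± 0.19. The other 3 that rose were Vegfd (2.73), a VEGF family ligand, Cxcr4 (2.02), the receptor of Cxcl12, and Notch4 (0.93), a Notch receptor.

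Of 10 arterial, venous and lymphatic genes, 9 were tested, 6 were lower and 2 higher, with a median of -1.04. Of all genes 31.2% were called lower and 27.9% higher, so 2 higher genes do not set this list apart. Of the 6, Bmx, a kinase of arterial endothelium, and Lyve1, a hyaluronan receptor of lymphatic vessels, were too low to be tested within TRAP libraries and passed the filter through the pre-TRAP libraries, so a lower TRAP level was a condition of their being tested. Nr2f2, a venous-fate factor that mesenchyme also expresses, had -0.35 and Ephb4, the venous Eph receptor, -1.04. Efnb2, its arterial ligand, rose by 0.41, and Gja5, a gap junction protein of arteries, had -0.25 with an adjusted p of 0.345 (edgeR). The other gene that rose was Prox1, a lymphatic factor that otic sensory cells and neurons also use, with 1.61.

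Most genes of neighbouring cell types were lower in TRAP too, where 31.2% of all genes were called lower. Of 10 pericyte genes, 9 were lower and 0 higher, with a median of -1.20. Of the genes named by the rule, Rgs5, a regulator of G-protein signalling, had -2.65 and Pdgfrb, the PDGF receptor of mural cells, -2.28. Cspg4, the proteoglycan NG2, had -1.27 and Acta2, smooth muscle actin, -0.59. The summed pericyte level was 36.7 to 130.6 CPM in TRAP libraries and 102.5 to 175.1 CPM in pre-TRAP libraries, so these ranges overlapped.

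RNA of cells that circulate in vessels or enter tissue from them was lower as well, beside the same 31.2% of all genes called lower. Of 11 macrophage genes, 10 were lower in TRAP, with a median of -2.74, among them Adgre1, the F4/80 antigen, which passed the filter through pre-TRAP libraries. Their sum was 2.72 to 8.05 CPM in TRAP libraries and 26.2 to 42.5 CPM in pre-TRAP libraries. C1qb, a complement subunit, had -2.49, Fcer1g and Tyrobp, signalling adaptors, -2.84 and -2.86, and Cx3cr1, the fractalkine receptor, -3.16. Of 12 erythroid genes, 10 were lower, with a median of -3.00, and their sum was 468.9 to 1627 CPM in TRAP libraries and 6946 to 16340 CPM in pre-TRAP libraries. The adult-type globin genes Hba-a1 and Hba-a2 had -3.28 and -3.29, and Hbb-bs and Hbb-bt -3.73 and -3.71, but each pair is near-identical in sequence, so the division of reads within a pair is uncertain. Of 11 tested periotic mesenchyme genes, 9 were lower and 1 higher, with a median of -2.08, and their sum was 276.9 to 1254 CPM in TRAP libraries and 970.2 to 1452 CPM in pre-TRAP libraries. The fibrillar collagen genes Col1a1, Col1a2 and Col3a1 had -1.80, -1.70 and -1.32, and Lum, the proteoglycan lumican, 0.20 with an adjusted p of 0.322 (edgeR). No gene of these lists was at 0 in all TRAP or all pre-TRAP libraries. Their part in the lower endothelial level of TRAP libraries was not tested.

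The cell types on the other side of the comparison went up, where 27.9% of all genes were called higher. All 12 neuron genes were higher in TRAP, with a median of 2.64. Stmn2 had 2.79, Tubb3 2.43, Nefm 2.63 and Gap43 2.63, which encode proteins of the neuronal cytoskeleton and growth cone. Of 12 otic epithelium genes, 10 were higher and 1 lower, with a median of 0.93. The transcription regulators Gata3 and Eya1 had 1.57 and 1.14. The 1 that was lower was Oc90, an otoconial matrix protein of non-sensory epithelium, with -1.53 ± 0.17 (SE, edgeR adjusted p = 2.00e-08).

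**Figure D4:**
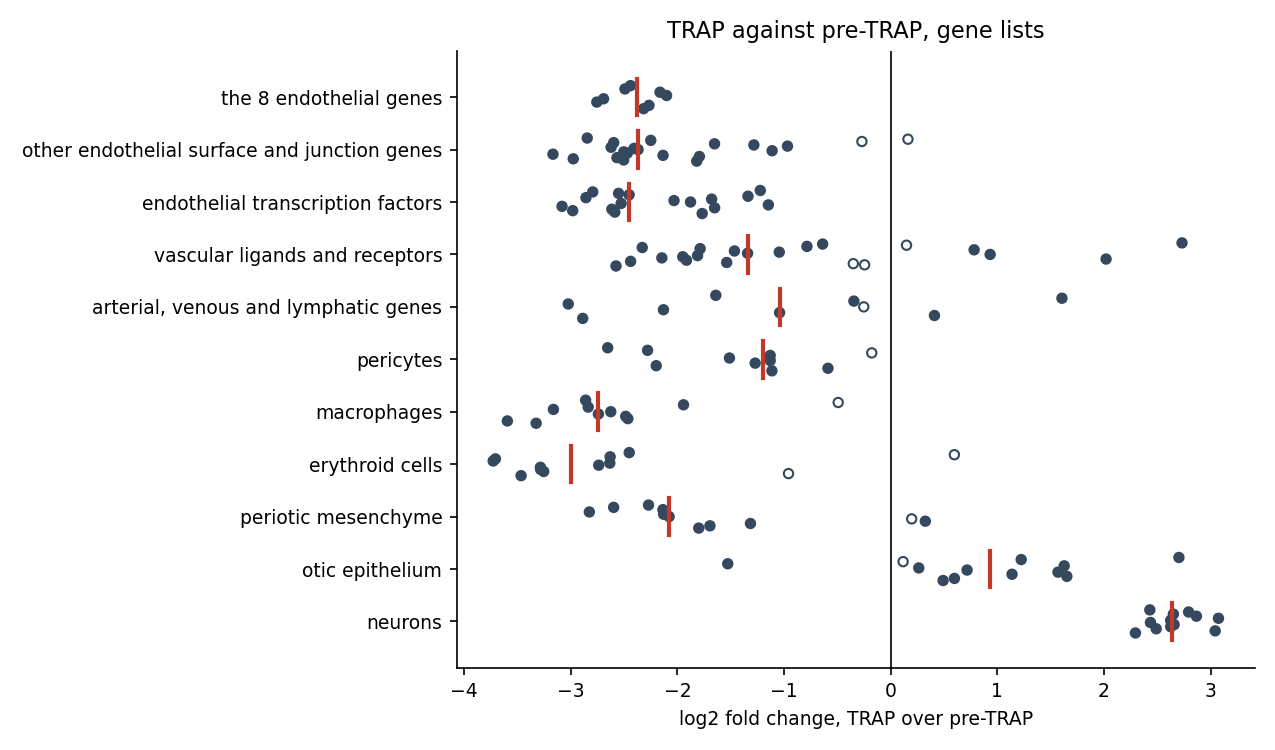
Log2 fold change of TRAP over pre-TRAP for each gene of 11 lists (1 point a gene), with filled points for genes called at an adjusted p under 0.05 in edgeR, open points for the others and a red bar at the list median. The 8 endothelial genes span -2.76 to -2.10 around a median of -2.38, and the neuron list is centred on 2.64.

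The second comparison asked whether endothelial RNA differed between Fgf20-/- and Fgf20+/- embryos. None of the 8 genes passed in either kind of library, and the mut and het values overlapped for all 8. The summed level of the 8 genes had a lowest, median and highest value of 8.11, 13.5 and 18.8 CPM in TRAP mut libraries and 7.99, 11.8 and 25 CPM in TRAP het libraries. In pre-TRAP libraries it was 66.9, 71.2, 71.9 and 75.6 CPM in mut and 62.4, 72.2, 73.9 and 75.0 CPM in het. The genotypes overlapped in both. In bulk RNA, a difference in the number of endothelial cells and one in RNA per endothelial cell cannot be told apart.

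In TRAP libraries, mut over het gave a positive log2 fold change for 6 of the 8 genes and a negative one for 2. It ran from -0.18 ± 0.18 in Egfl7 up to 0.46 ± 0.35 in Esam (SE, edgeR adjusted p = 1.0 for each of the 8). No gene of the 8 reached an unadjusted p under 0.05 in edgeR or DESeq2, 1 did in limma voom, and none was called by any of these tools. Across all genes 0.0742% were called. The 95% intervals were wide, from -0.56 to 0.20 in Egfl7 and from -0.90 to 0.77 in Kdr, so changes within those bounds are not excluded. For Esam the interval was -0.27 to 1.20, and its value was 0.87 without library 3, the het library with the highest endothelial level. Without the 4 mesenchyme-rich libraries, an alternative chosen after seeing the data, it was 1.07 (edgeR unadjusted p = 0.00348, adjusted p = 0.608), the lowest unadjusted p of any of the 8 genes in the alternatives of this comparison.

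In pre-TRAP libraries, 4 values were positive and 4 negative. They ran from -0.21 ± 0.22 in Emcn up to 0.26 ± 0.22 in Tek (SE, edgeR adjusted p = 0.842 to 0.997 over the 8). None of the 8 had an unadjusted p under 0.05 in edgeR, DESeq2 or limma voom, and 0.00455% of all genes were called. The 95% intervals here were narrower, from -0.20 to 0.47 in Egfl7, from -0.45 to 0.31 in Pecam1, from -0.55 to 0.33 in Cdh5 and from -0.43 to 0.44 in Kdr. Those that reached farthest were -0.69 to 0.27 in Emcn and -0.23 to 0.74 in Tek. Changes within these bounds are not excluded. The genotype by method interaction given above did not pass for any of the 8.

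**Figure D5:**
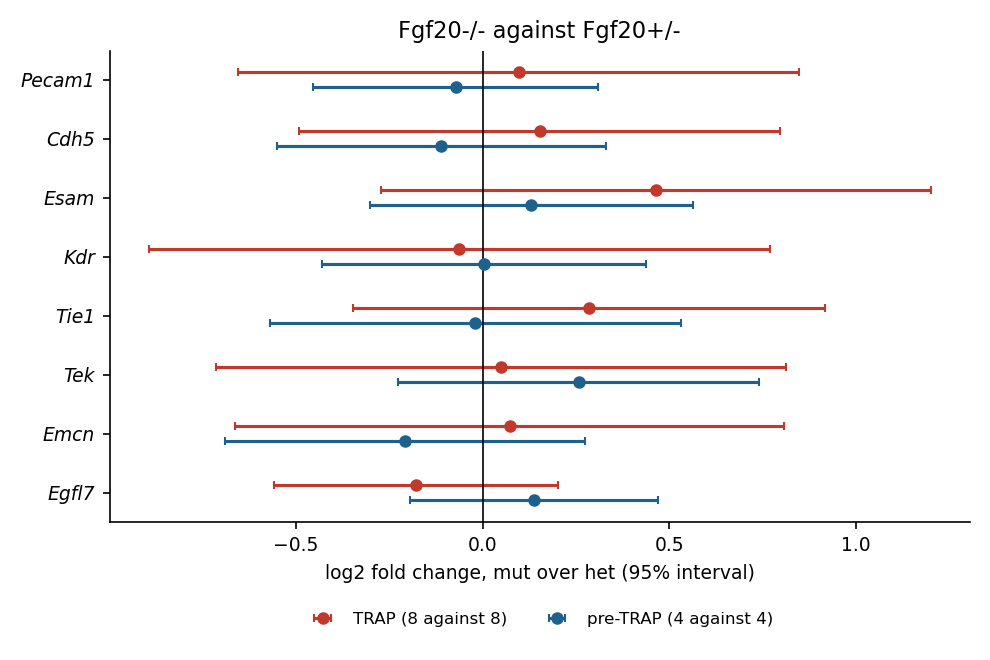
Genotype difference (mut over het, log2 fold change) of the 8 genes in TRAP libraries (red, upper of each pair, 8 against 8 libraries) and in pre-TRAP libraries (blue, 4 against 4), with 95% intervals from edgeR. All 16 intervals include 0, and TRAP intervals are the wider in each pair.

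Within single experiments the genotype values scattered. In TRAP libraries of experiment 2, Tie1 had -0.17, Emcn -0.55 and Tek -0.38, and in experiment 1 the same genes had 0.79, 0.73 and 0.53. For Emcn the TRAP mut libraries of experiment 2 had 0.495, 1.56, 1.94 and 2.78 CPM, against 1.03, 1.64, 2.54 and 4.69 CPM in TRAP het. In experiment 1 the TRAP mut libraries had 1.99, 2.07, 3.67 and 3.76 CPM, against 1.23, 1.29, 1.76 and 2.74 CPM in TRAP het. The genotypes overlapped in both experiments, but rank for rank the mut values were the lower ones in experiment 2 and the higher ones in experiment 1. The difference between the experiments in the genotype effect (experiment 2 minus experiment 1) was -1.24 ± 0.66 for Emcn (SE, edgeR unadjusted p = 0.0738, adjusted p = 0.970), with a 95% interval of -2.61 to 0.13. Over the 8 genes it ran up to 0.06 in Esam, and it passed for 0 of 8 (0 at an unadjusted p under 0.05 in edgeR, 1 in DESeq2 and 0 in limma voom, none of them called) against 0% of all genes.

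The other endothelial and vascular lists likewise had no member called between genotypes, in TRAP or in pre-TRAP libraries. For the 10 arterial, venous and lymphatic genes, 7 of which were tested in TRAP and 9 in pre-TRAP libraries, the median of mut over het was 0.01 in TRAP and -0.30 in pre-TRAP libraries, where 7 of the 9 were negative. For the 21 other surface and junction genes, 20 of which were tested in TRAP, the median of mut over het, on the log2 scale, was 0.08 in TRAP and 0.07 in pre-TRAP libraries. For the 17 transcription factors it was 0.07 in TRAP and -0.19 in pre-TRAP libraries. For the 21 ligands and receptors it was -0.03 in TRAP and -0.09 in pre-TRAP libraries. The median over all genes was -0.02 in TRAP and -0.03 in pre-TRAP libraries. The lowest adjusted p among these lists was 0.129 (edgeR), for Gata2 in TRAP.

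The third comparison set experiment 2 against experiment 1. In TRAP libraries 23% of all genes were called, and 0 of the 8 endothelial genes. Their log2 fold changes of experiment 2 over experiment 1 ran from -0.21 in Pecam1 up to 0.34 in Kdr (edgeR adjusted p = 0.414 to 0.922, 0 at an unadjusted p under 0.05, and 0 called by DESeq2 or limma voom). Their 95% intervals reached -0.96 at the lower end and 1.17 at the upper end, so changes of that size are not excluded. In pre-TRAP libraries 14.7% of all genes were called, and again 0 of the 8. The values ran from -0.42 ± 0.20 in Esam up to 0.17 ± 0.25 in Tie1 (SE, edgeR adjusted p = 0.193 to 0.961). There 0 of the 8 had an unadjusted p under 0.05 in edgeR and limma voom and 1 did in DESeq2, and none was called. The 95% intervals in pre-TRAP libraries reached -0.85 and 0.72, and changes of that size are likewise not excluded. Esam in pre-TRAP libraries had 4.46, 5.30, 5.82 and 6.90 CPM in experiment 2, against 6.23, 6.50, 7.87 and 9.29 CPM in experiment 1, so the experiments overlapped.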

How the data were processed

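The table deposited by the authors gives 24 libraries as unnormalized whole-number counts per Ensembl gene. Per the submitters' processing notes, STAR, DESeq2 and the build GRCm38.p5 were used. Counting tool, annotation and strand setting were not given in the sources used here, so reads of overlapping antisense genes cannot be told apart. All columns were matched to samples by number, and symbols were matched for 53274 of 53946 identifiers.

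Each comparison was fitted over all genes in edgeR 4.0.16 (R 4.3.3), with TMM scaling, filterByExpr (minimum count 10, cells of group and experiment), quasi-likelihood F tests and experiment as covariate (genotype for the experiment comparisons, cell means for the interactions with experiment). Genotype and experiment comparisons used libraries of 1 method, the genotype by experiment interaction used the TRAP libraries, and the rest used all 24. Fits of all 24 libraries shared 1 dispersion (spread parameter) per gene over the groups. The relative spread of the 8 genes was larger between TRAP than between pre-TRAP libraries. The p-values and intervals of those fits therefore rest on a pooled spread. The call threshold was a Benjamini-Hochberg adjusted p below 0.05. SE is the log2 fold change over the root of F, and 95% intervals use the moderated degrees of freedom. Fits with experiment and a single group factor were also run on simulated counts, for the genotype comparisons and for TRAP against pre-TRAP. Interactions and contrasts within a genotype were not simulated, and the outcome is not given here.

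The 8 genes and the lists were chosen with earlier results of these data known. Beyond the 8 genes, the up to 4 genes of each list with the highest mean CPM and the genes most like the 8 were to be named, and Rasip1, Prox1, Vegfd, Cxcr4, Notch4, Esm1, Bmx, Lyve1 and Adgre1 were named after their values were seen. 1 gene that the rule picks is not reported here. Alternatives were DESeq2 scaling in edgeR, no filter, the Wald test of DESeq2 1.42.0, voom with quality weights in limma 3.58.1, each experiment alone, no covariate, 1 fit of all libraries, and leaving out each library.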

Additional observations from a re-analysis of the deposited data

Results flagged for a closer look

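Single TRAP libraries stood far above the rest of their group for 2 genes. Tek in TRAP mut library 6 had 1.18 CPM, and the gap to its nearest neighbour was 0.626 of the group's range. Emcn in TRAP het library 3 had 4.69 CPM, with a gap of 0.533 of the range. They are 2 of 32 combinations of gene and group, where chance flags about 1 in 20. Both are among the 4 TRAP libraries richest in mesenchyme RNA, and the part of that in these values was not tested.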

How the results depend on the processing

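All 8 genes were called lower in TRAP than in pre-TRAP libraries, over both genotypes and within each, under each alternative run, with log2 fold changes between -3.55 and -1.54 and adjusted p up to 0.0202 (edgeR, DESeq2 or limma voom). Among these alternatives, the fit without the 4 mesenchyme-rich libraries leaves out high TRAP values of the 8 genes, so its calls add little. None of the 8 was called in the other comparisons under any alternative run. The called value that moved by over 1.5 times was that of Esam in het, given above.

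The sign of several uncalled genotype values was not stable, and the cause was not tested. Cdh5, Esam and Egfl7 in TRAP, and Tek, Emcn and Egfl7 in pre-TRAP, kept their sign under every alternative run. In TRAP, Kdr was 0.24 in experiment 1 alone, Tie1 -0.17, Tek -0.38 and Emcn -0.55 in experiment 2 alone, and Tek -0.017 without the 4 mesenchyme-rich libraries. In pre-TRAP, Pecam1 was 0.095 and Cdh5 0.13 in experiment 2 alone, and Esam -0.091, Kdr -0.28 and Tie1 0.092 in experiment 1 alone. Leaving out 1 library gave -0.076 to 0.35 for Pecam1, -0.45 to 0.19 for Kdr, -0.17 to 0.25 for Tek and -0.043 to 0.36 for Emcn in TRAP, and -0.12 to 0.035 for Pecam1, -0.24 to 0.066 for Cdh5, -0.15 to 0.12 for Kdr and -0.22 to 0.24 for Tie1 in pre-TRAP. Over all genes, the TRAP genotype comparison called 16 genes, 2 to 53 under other settings and 6 to 16 without single libraries. TRAP against pre-TRAP called 11135 genes in mut (5743 to 13609 under other settings) and 10598 in het (5828 to 12201), and the method by experiment interaction called 7 (6 to 58, and 2 to 10 without single libraries). The pre-TRAP genotype comparison called 1 (0 to 2), and the pre-TRAP experiment comparison 3231 (1995 to 4925 without single libraries).

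No paired analysis was possible because the labels do not say which TRAP and pre-TRAP libraries, if any, came from the same pool. Each experiment alone could not be run for the experiment comparisons and their interactions, nor a fit without covariate for the interactions with experiment. Depth limited Tek most, at 5 to 41 counts per TRAP library.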
